A study of Mus musculus with 6 samples.

Results

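The baseline DNA methylation of colon epithelium was described in the 2 control libraries of a series of 6. The regions described are those on the 19 autosomes with methylation calls in both control libraries, 186297 of 206247 autosomal regions and of 209687 regions in all. They were chosen by library, chromosome and the presence of calls, not by their methylation. The other 4 libraries, from mice given AOM (a colon carcinogen) and DSS (which causes colitis), with or without curcumin, were not used here. Both control samples are C57BL/6 colon epithelium at 18 weeks of age, and C57BL/6 is a widely used inbred mouse strain. Their group label is control, and no treatment is named for them. Per the labels' protocol, which is the same for all groups, the proximal segment and any tumours of the right colon were cut away, and the mucosa was scraped off what remained with a glass slide. The scrapings were spun slowly and washed to lower the share of blood cells, and other cells of the mucosa can be among them. Nothing in the labels says that the samples came from separate mice, so the spread between them may be technical. With 1 group of 2 libraries there is no test between groups, and an exact sign-flip test over 2 libraries cannot give a two-sided p below 0.5. Values are therefore given for each library or as a mean ± SD over both.

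In mammals, methylation of DNA falls almost entirely on cytosines that are followed by guanine (CpGs). DNMT1 copies the pattern after replication, DNMT3A and DNMT3B add new marks, and TET enzymes oxidise them. Most of the genome is poor in CpGs and methylated, while CpG islands, short stretches rich in CpGs at many promoters, are mostly free of methylation, and their flanks are called shores. In the intestine, epithelium is renewed from stem cells in the crypts, and aberrant methylation of islands together with loss elsewhere is a known feature of colon tumours. Bisulfite sequencing, the assay used here on DNA captured with a commercial design, reads an unmethylated cytosine as thymine. It does not separate 5-methylcytosine from 5-hydroxymethylcytosine. The deposited regions could not be tied to genes, because no annotation of their build, mm9, was used here, so the labelled tissue could not be checked against marker genes. No region sequences are shown for the same reason.

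The shape of the regions bears on every result. A region holds 3 to 77 CpGs over 5 to 501 bases, and the regions described had a median of 6 CpGs, 180 bases and 4.04 CpGs per 100 bases. The values show a rule in how the regions were cut: across each of the 19335 gaps under 100 bases, joining the neighbours would give a region longer than 501 bases, the largest length in the files. A region with 3 CpGs was at most 200 bases long. Regions under 100 bases apart thus look like pieces of 1 longer CpG tract, and CpG count, length and distance are tied together. Across the regions, the Spearman correlation of CpG count was 0.837 with length, 0.310 with CpG density and -0.332 with the distance to the next region.

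Depth differed between the libraries. Control replicate 0 held 29420431 calls in these regions, with a median of 110 calls per region and 15.6 calls per CpG. Control replicate 1 held 24259641 calls, with medians of 91 and 12.9. A call is 1 CpG read once. Calls of the same read depend on each other, and no confidence interval is given from them, apart from a limit for counts of 0. The deposited files are blank where a region has under 20 calls, and the regions blank in 1 of the libraries were shorter and more methylated than those with calls in both. The 9385 autosomal regions with calls only in replicate 0 had a median of 3 CpGs and a mean level of 57.8%, and the 3515 with calls only in replicate 1 had a median of 3 CpGs and a mean level of 59.3%. Regions of 3 CpGs were 55.8% and 57.3% of these, against 18.7% of the regions with calls in both. With calls in both, regions of 3 CpGs had a mean level of 55.8%, so the CpG mix goes with the higher level. A further 7050 autosomal regions were blank in both libraries, and 76.7% of them held 3 CpGs.

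Autosomal regions in control colon epithelium formed a sharp peak near 0% methylation and a broader one near 90%, although 50.6% of regions lay between 10 and 90%. The level of a region is given as methylated calls in percent of all its calls. Its mean was 42.2% in replicate 0 and 41.9% in replicate 1, or 42.1% ± 0.206 (SD, n = 2), and the median region stood at 36.9%. Under 10% methylation lay 35.6% of regions in replicate 0 and 35.7% in replicate 1, and above 90% lay 13.997% and 13.6%. The most filled class of 5 points was 0 to 5%, with 29.2% and 28.7% of regions. The least filled was 45 to 50%, with 2.07% and 2.09%. Both libraries thus had a peak at each end and the same trough.

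**Figure D1:**
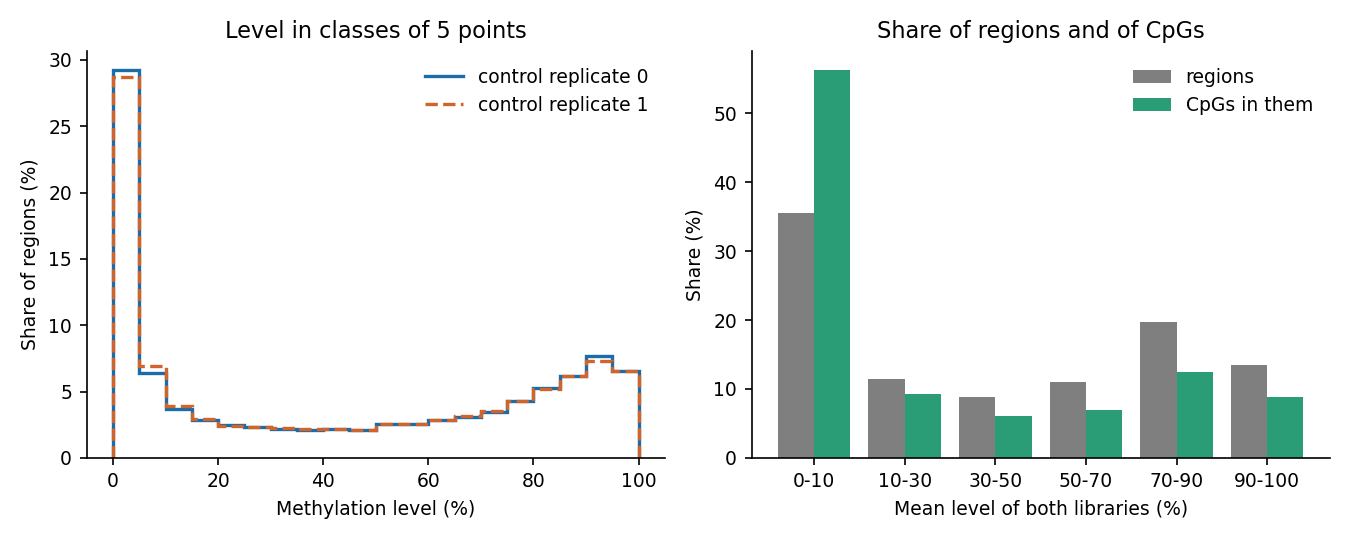
The left panel gives the share of autosomal regions (%) in each class of 5 percentage points of methylation level, one line per control library. The right panel gives the share of regions and of the CpGs inside them by the mean level of both libraries: the class of 0 to 10% held 35.6% of regions and 56.3% of CpGs.

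The unmethylated end was heavier by CpGs than by regions. Regions with a mean of both libraries under 10% were 35.6% of regions but held 56.3% of the 1784312 CpGs, with a median of 13 CpGs per region. Regions at 90% or more were 13.5% of regions and 8.89% of CpGs, with a median of 5. No methylated call was found in either library in 3352 regions, at a median of 60 and 48 calls. No unmethylated call was found in either in 621 regions, at medians of 36 and 32 calls. If every call were an independent draw, a count of 0 methylated calls would allow a level of up to 5.0% at 60 calls and 6.25% at 48. Calls of the same read depend on each other, so the level allowed can be higher.

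Mitochondrial DNA, which is generally held to carry little CpG methylation, gave a level of 0.956% over 112977 calls in replicate 0 and 0.991% over 49247 calls in replicate 1. It passed through the same bisulfite treatment and shows what remains as a methylated call there. The median autosomal region of 30 or more CpGs stood at 1.30% and 1.29%, above that value by less than 1 point, and 33.2% and 36.1% of these regions were at or below it.

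The number of CpGs in a region went with the largest differences in level among the 4 features examined. Classes here and below include their lower and not their upper bound. Mean levels were 55.8% ± 0.202 (SD, n = 2) at 3 CpGs, 47.5% ± 0.283 at 6 to 9, 34.2% ± 0.219 at 10 to 14, 20.1% at 15 to 19, 9.16% at 20 to 29 and 3.59% ± 0.0645 at 30 or more. Each step was far larger than the spread between the libraries. The means are those of mixed classes, not of typical regions. At 10 to 14 CpGs the quartiles were 2.48% and 70.9%, with 43.9% of regions under 10% and 10.2% above 90%. At 3 CpGs 17.2% were under 10%, and at 30 or more 94.9% were.

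By CpG density the order was not even. Mean levels were 51.8% below 2 CpGs per 100 bases, 48.5% at 2 to 4, 41.3% at 4 to 6, 31.3% at 6 to 8 and 24.7% at 8 to 10, but 32.3% at 10 or more. The densest class had a median length of 53 bases and a median of 7 CpGs, so it mixed very short regions with parts of long tracts. Among regions of at least 100 bases the upturn was absent: at 100 to 200 bases the level was 20.9% at 8 to 10 CpGs per 100 bases and 7.10% at 10 or more. The difference between the sparsest and densest classes was 19.5 points over all regions and 47.8 points in regions of at least 100 bases. It was 31.3 points with at least 50 calls per library, 38.8 with at least 100 and 35.5 with calls pooled over regions. Crossing the features separated them. In regions of 3 CpGs, the level stood at 53.9% in the sparsest and 58.2% in the densest class, so that density went with slightly more methylation. At 10 to 14 CpGs it went the other way, from 37.4% at 2 to 4 CpGs per 100 bases to 11.5% at 10 or more, and at 20 to 29 CpGs from 12.6% at 4 to 6 to 3.89% at 10 or more. The sign turned at about 6 to 9 CpGs, where the level was 48.8% in the sparsest and 41.1% in the densest class, with 48.9% between them at 4 to 6.

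Length alone was a weaker guide. The mean level was 56.9% in regions under 50 bases, 50.3% at 100 to 200 and 20.2% at 400 or more, and a region of 400 bases or more held a median of 21 CpGs against 3 in the shortest class. The share of the variance of level between regions that lay between classes was 19.8% for CpG count in both libraries. It was 4.44% and 4.47% for density, 11.02% and 11.05% for length, and 11.8% and 11.9% for the distance to the next region. CpG count with distance gave 23.2% and 23.4%, and all 4 features together, in 496 classes, 24.3% and 24.4%. Most of the variance thus lay between regions that these classes do not separate.

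Distance to the next region divided the CpG-dense regions. Over all regions the mean level was 13.8% where the next region was under 100 bases away, 33.9% at 100 to 200, 43.5% at 500 to 1000, 51.9% at 1000 to 5000 and 54.8% at 20000 bases or more. With the next region under 100 bases away, the level ran from 38.0% in the sparsest class to 2.88% ± 0.0707 (SD, n = 2) in the densest. With the next region 20000 bases or more away, the densest class was instead the most methylated of the 6, at 65.1% ± 0.173 over 1112 regions, while the other 5 stood between 52.3% and 54.5%. Measured to the nearest region on either side, the densest class stood at 76.3% over 399 regions. Of those 1112 regions, however, only 102 held 10 or more CpGs, and these stood at 29.3%. The high level of isolated dense regions was therefore that of regions with fewer than 10 CpGs.

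A region with more CpGs was less methylated in every distance class, except that under 100 bases the 3 regions of 3 CpGs stood at 40.1% and those of 4 to 5 at 40.4%. At 20000 bases or more the level was 60.8% with 3 CpGs, 44.98% with 10 to 14, 19.9% with 20 to 29 and 9.11% with 30 or more. Within a count, isolation went with more methylation, and this was widest at intermediate counts. At 15 to 19 CpGs the level was 11.1% ± 0.168 (SD, n = 2) with the next region under 100 bases away, 13.9% at 200 to 500, 20.7% at 500 to 1000 and 35.4% ± 0.340 at 1000 to 5000. From 20000 bases on it was 34.1%.

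**Figure D2:**
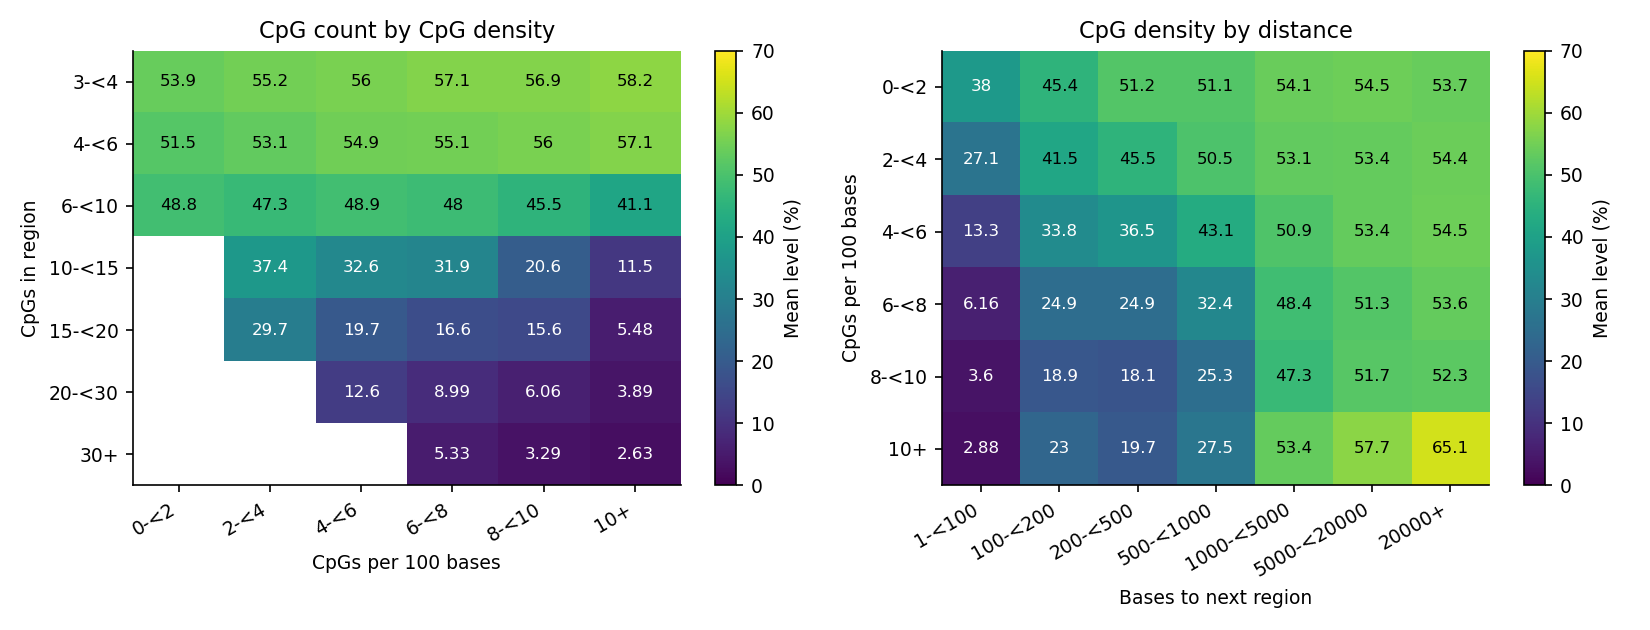
Mean methylation level (%) of both control libraries, as colour and as number, in classes of CpG count by CpG density (left) and of CpG density by bases to the next region (right). Classes with under 50 regions are blank. At left the level is ordered mainly by CpG count. At right, density orders the level where regions are close together, and at 20000 bases or more the densest class, at 65.1%, is the highest of the 6.

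Depth moved with the level as well. Across all regions the mean level was 28.3% under 5 calls per CpG and 44.2% at 15 to 20. The median density was 7.59 and 3.68 CpGs per 100 bases. Regions with under 20 calls are blank, so regions of 3 CpGs cannot fall under 5 calls per CpG. Of the 4028 regions under 5 calls per CpG, 257 held 3 to 5 CpGs, so this limit keeps CpG-poor regions out of the class. Within regions of 3 to 5 CpGs the level was instead lower at greater depth, at 58.3% with 5 to 10 calls per CpG and 49.2% with 30 to 50, and 51.9% with 50 or more. The part of depth in the levels by CpG count and density was not tested.

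The level of CpG-poor regions was lower near CpG-rich unmethylated ones, over about 1500 bases. Regions of 30 or more CpGs that lay below 10% in both libraries, 7640 in all, were taken as unmethylated cores, so their low level is the choice and not a result. Around them, regions of 3 to 5 CpGs stood at 12.5% ± 0.321 (SD, n = 2) within 200 bases, 25.3% at 200 to 500, 35.1% at 500 to 1000, 47.5% at 1000 to 1500 and 51.5% at 1500 to 2000. Farther out they differed less, with 53.8% at 3000 to 5000 and 56.8% from 50000 bases on. Regions of 10 to 19 CpGs stood lower at every distance, at 5.09% within 200 bases, 19.8% at 1000 to 1500 and 34.6% from 50000 bases on.

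Neighbouring regions resembled each other over a similar range. Under 50 bases apart, the median difference between neighbours was 1.42 points in replicate 0 and 1.54 in replicate 1. It was 8.26 and 8.29 at 100 to 150 bases, 20.6 and 20.2 at 500 to 1000 and 28.5 and 28.4 at 1000 to 2000, and stood between 28.9 and 31.5 points in replicate 0 at all larger distances. The correlation of neighbours' levels was 0.857 and 0.856 under 50 bases, 0.747 and 0.743 at 100 to 150, 0.346 and 0.342 at 500 to 1000 and 0.0587 and 0.0572 at 10000 to 50000. Among pairs with fewer than 10 CpGs in each region it was 0.685 and 0.676 at 100 to 150 bases and 0.128 and 0.137 at 1000 to 2000. These correlations describe pairs of regions in 1 library, and whether close regions share reads was not tested.

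**Figure D3:**
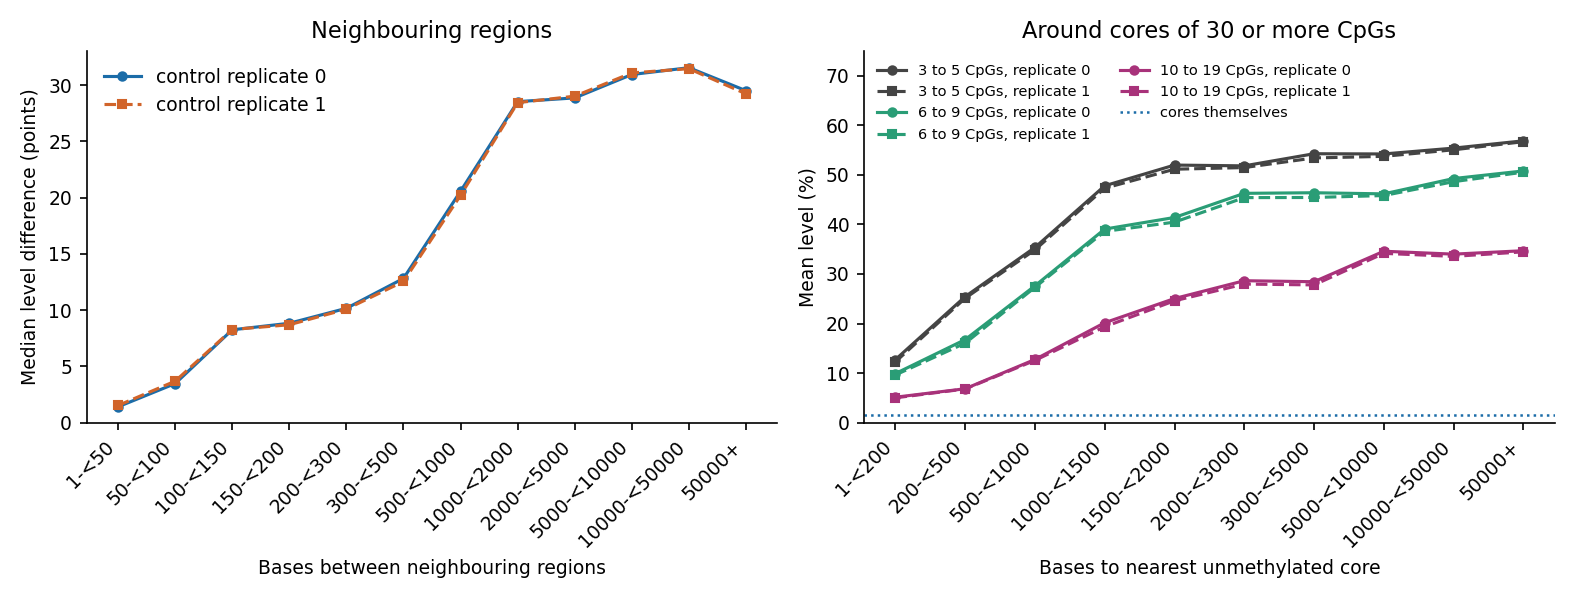
The left panel plots the median absolute difference in level (percentage points) between neighbouring regions against the bases between them, one line per control library. The right panel plots the mean level (%) of regions of 3 to 5, 6 to 9 and 10 to 19 CpGs against the bases to the nearest unmethylated core, with the cores' own mean of 1.64% dotted. The median difference and the line of 3 to 5 CpGs differ little beyond 2000 bases, while the line of 10 to 19 CpGs still goes from 24.8% at 1500 to 2000 bases to 34.4% at 5000 to 10000.

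Large steps in level between neighbouring regions were mostly repeated between the libraries. Of 78370 pairs of neighbours under 500 bases apart, 7515 differed by more than 50 points in replicate 0 and 7433 in replicate 1. In 5900 pairs both did so in the same direction, and in 0 pairs in opposite directions. The steepest, by the lower of its values in the 2 libraries among regions with at least 100 calls, lies on chromosome 11. There a region of 24 CpGs from 53841955 to 53842363 stood at 0.935% and 0.852%, and a region of 3 CpGs from 53842793 to 53842854, 429 bases on, at 98.1% and 96.04%. The next steepest is on chromosome 15, where 41 CpGs from 79377215 to 79377679 stood at 0.732% and 2.14% and 15 CpGs from 79377719 to 79378190 at 97.0% and 97.2%, with 39 bases between them. The third, on chromosome 17, joined 16 CpGs from 46919856 to 46920137, at 1.06% and 1.26%, to 7 CpGs from 46920541 to 46920738, at 96.0% and 96.3%.

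Unmethylated regions lay in longer runs than methylated ones. A run was taken as neighbouring regions less than 500 bases apart that are all in 1 level class in both libraries. The 62150 regions below 10% in both fell into 31945 runs, of which 1711 held 5 or more regions, and 26.9% of the regions stood alone. The 40785 regions above 80% in both fell into 34632 runs, of which 57 held 5 or more, and 72.6% stood alone. The next region was within 500 bases for 66.2% of the unmethylated and 28.7% of the methylated regions, so unmethylated regions also had more close neighbours with which to form a run. The longest unmethylated run, on chromosome 2 from 31490677 to 31497969, held 16 regions with 330 CpGs, with means of 4.58% and 4.26%. Another of 16 regions lies on chromosome 14 from 106291905 to 106298712, with 258 CpGs and means of 1.39% and 2.58%. The longest methylated runs held 10 regions each: on chromosome 8 from 48368936 to 48372605, with 60 CpGs at 91.7% and 92.5%, and on chromosome 15 from 76009034 to 76012439, with 139 CpGs at 97.1% and 96.9%.

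The regions with most CpGs were all nearly unmethylated. On chromosome 10, 77 CpGs from 79578448 to 79578937 stood at 1.93% of 571 calls in replicate 0 and 1.73% of 347 calls in replicate 1. The second, with 73 CpGs (chromosome 8, 15027840 to 15028323), stood at 1.76% and 1.21%. The third, with 70 CpGs (chromosome 9, 103267411 to 103267877), stood at 2.11% and 0.909%.

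Methylated regions with many CpGs were few. Of 22648 regions of 20 or more CpGs, 704 were above 80% in both libraries and 20036 below 10%. The methylated ones lay farther from other regions, with a median of 372 bases to the nearest against 32. Within 2000 bases of an unmethylated core lay 2.84% of them, against 34.6% of the 12396 unmethylated ones that are not cores themselves. The one with most CpGs, on chromosome 17 from 26568847 to 26569261 with 42 CpGs, stood at 92.5% of 334 calls and 86.7% of 188. Of the next, on chromosome 15, the region from 72888479 to 72888929 with 38 CpGs stood at 95.4% and 92.6%, and that from 25711151 to 25711619 with 37 at 89.9% and 97.8%.

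Unmethylated regions with few CpGs were more common than these. Of 81364 regions of 3 to 5 CpGs, 12821 were below 10% in both libraries and 23399 above 80%. Over all 186297 regions, 62150 were below 10% in both. The set is defined by CpG count, and its unmethylated regions had a median density of 3.82 CpGs per 100 bases, against 4.04 over all regions. Another region lay within 200 bases for 50.8% of the unmethylated and 29.5% of the methylated ones, and a core within 2000 bases for 14.01% and 3.67%. Over all regions of 3 to 5 CpGs, another region lay within 200 bases for 36.3% and a core within 2000 bases for 7.05%. Most of the unmethylated ones were therefore not near a core of 30 or more CpGs, and neither were most regions of 3 to 5 CpGs. Among regions with fewer than 2 CpGs per 100 bases that were below 10% in both, the one with most calls, on chromosome 10 from 80140384 to 80140879 with 9 CpGs, stood at 1.18% of 340 calls and 0.385% of 260. The following 2 are on chromosome 14 (56537676 to 56538130), where the levels were 6.27% and 6.97%, and on chromosome 12 (85028240 to 85028632), where they were 6.91% and 9.86%.

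Intermediate levels were rarer in regions with many CpGs. At 40 to 60% in both libraries lay 9943 regions, with a median of 5 CpGs against 6 over all regions. Of these, 140 held 20 or more CpGs, while 22648 of all 186297 regions (12.2%) did. In bulk DNA an intermediate level can come, among others, from different cells, from the 2 alleles or from partly methylated molecules, which cannot be told apart here. Chromosome 12 held 22 of the 140 (15.7%), against 4.35% of all regions of 20 or more CpGs. Chromosome 18 held 13 (9.29%) against 3.16%, and chromosome 3 held 0 against 4.40%. The 3 with most CpGs all lie on chromosome 12: 63 CpGs from 19960108 to 19960580 at 53.3% and 49.2%, 57 from 19612544 to 19612993 at 50.9% and 55.2%, and 47 from 20318155 to 20318523 at 57.5% and 51.6%. These 3 had 1299 to 1897 calls per library, against medians of 385 and 300 over all regions of 30 or more CpGs. Whether they gather reads from several copies was not tested.

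The 2 libraries agreed closely. Pearson's r of their levels was 0.978 and Spearman's rho 0.957 over the 186297 regions, and r was 0.921 over the 94935 regions with a mean of 10 to 90%. The mean absolute difference was 5.099 points and the median 3.06. Both put 88.5% of regions in the same class of below 10%, 10 to 90% or above 90%, and 0 regions were below 10% in one and above 90% in the other. A difference of more than 20 points was seen in 5548 regions (2.98%), with replicate 0 higher in 3128 and replicate 1 in 2420. More than 40 points was seen in 184.

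The spread between the libraries depended on level and depth. Root mean square differences were 2.94 points in regions under 10%, 12.6 at 30 to 50%, 11.8 at 50 to 70% and 4.74 at 90% or more. Within 10 to 90%, the value was 13.4 points below 5 calls per CpG in the shallower library, 10.2 at 10 to 15 and 6.15 at 50 or more. If every call were an independent draw it would be 9.70, 7.40 and 3.402 points at these depths. A higher value follows if all calls of a read were alike and every read covered all CpGs of its region. Calls per CpG then count as reads, and the value would be 26.9, 16.4 and 6.92. Regions run up to 501 bases, so reads may cover fewer CpGs, and the value would then be lower. It describes the sampling of reads only and is no upper bound on the measured spread. The measured spread lay between the lower and the higher value at every depth. At the greatest depth its variance was 0.789 times that of the higher value, against 0.249 times at the lowest. Depth classes also differ in CpG count, since regions with under 20 calls are blank. By CpG count, the variance was 1.68 times that of independent calls at 3 CpGs and 7.21 times at 30 or more. These classes held 22229 and 369 regions, with mean levels of 58.2% and 33.1%. Their medians were 14.7 and 8.57 calls per CpG in the shallower library, and the part of level and depth in the ratios was not tested. Against the higher value, the variance ran the other way, from 0.561 times at 3 CpGs to 0.206 times at 30 or more. That value rests on reads covering every CpG, which was not tested.

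**Figure D4:**
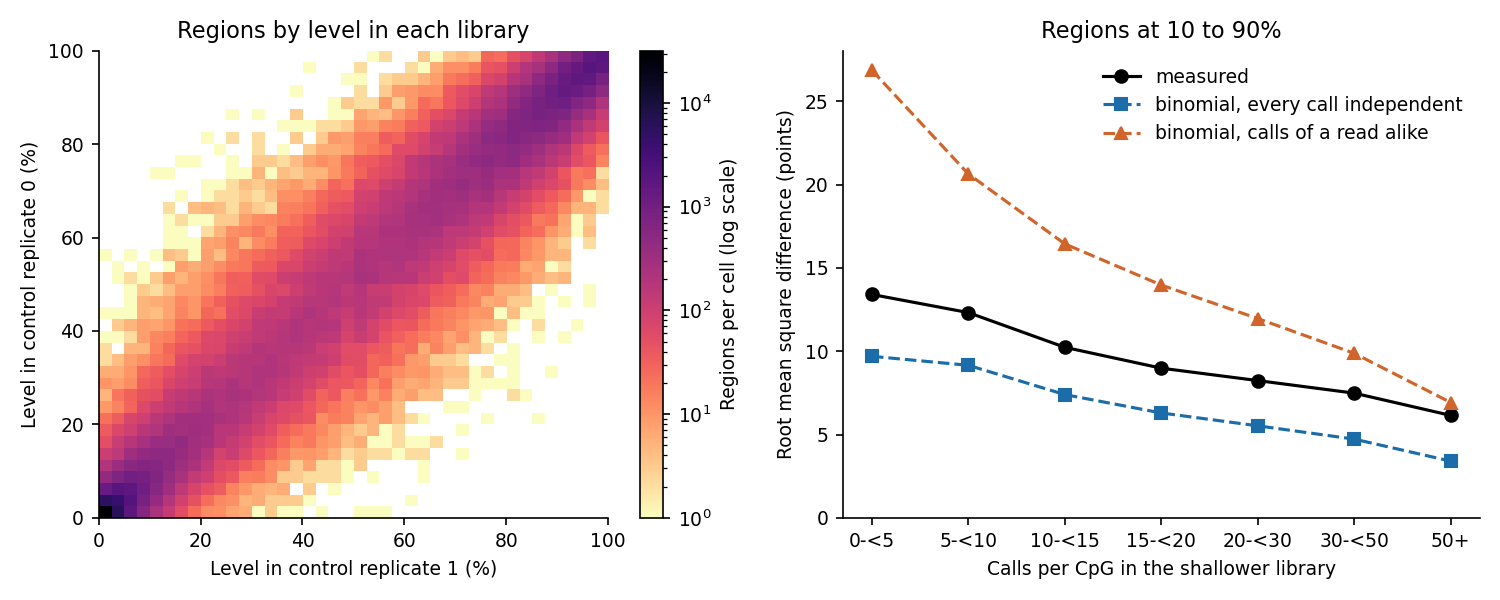
The left panel shows the number of regions (log colour scale) by level in control replicate 1 (x axis, %) and replicate 0 (y axis, %). The right panel plots the root mean square difference between the libraries (points), for regions at 10 to 90%, against calls per CpG. Beside it is the binomial spread of independent calls and of reads that cover every CpG with all calls alike. The measured line runs from 13.4 to 6.15 points between them.

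Differences between the libraries were weakly correlated between neighbouring regions when these were close, and single regions varied in this. For pairs at 10 to 90%, the correlation of the library difference was 0.334 under 50 bases, 0.162 at 100 to 150, 0.0711 at 500 to 1000 and 0.0144 from 50000 bases on. Of the regions with at least 100 calls, the one most in favour of replicate 0 lies on chromosome 1 from 88202041 to 88202365, with 16 CpGs at 51.8% and 7.04%. Its neighbour 19 bases before it, with 12 CpGs, stood at 44.8% and 5.73%, and the one 3000 bases after it at 56.1% and 13.9%, so 3 regions in a row differed by 39.0 points or more. On chromosome 6 from 18324701 to 18324911, by contrast, 5 CpGs stood at 49.7% and 6.03%, while the neighbours stood at 1.54% in both and at 90.6% and 92.1%. The third, on chromosome 12 from 52539645 to 52539871, stood at 56.3% and 12.8%. Most in favour of replicate 1 was a region of 11 CpGs on chromosome 5 from 148114515 to 148114875, at 14.8% and 62.3%, with neighbours that also stood higher in replicate 1, at 20.4% and 45.8% and at 1.94% and 13.9%. The second (chromosome 13, 56855027 to 56855497) stood at 30.7% and 68.0%, and the third (chromosome 19, 43547018 to 43547269) at 21.7% and 57.5%. Their neighbours shared little of the difference. The one 27 bases before the chromosome 13 region stood at 15.1% and 23.6%, and those 103 bases before and 100 bases after the chromosome 19 region at 86.1% and 87.1% and at 34.9% and 30.4%. These regions were chosen for their difference, which is a description only.

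Which library was the more methylated depended on how the regions were weighted. Counting each region once, replicate 0 was higher on 19 of 19 autosomes, by 0.00108 points on chromosome 5 to 0.585 on chromosome 14 and by 0.292 points overall. With all calls pooled it was lower, at 31.3% against 31.6%. Within each of the 7 classes of CpG count the pooled level was higher in replicate 0, for example 54.7% against 54.6% at 3 CpGs and 5.56% against 5.36% at 30 or more. Within classes of CpG density the order was mixed: replicate 0 was higher in the 3 sparser classes and lower in the 3 denser ones, at 17.9% against 18.3% at 6 to 8 CpGs per 100 bases, 11.6% against 11.9% at 8 to 10 and 14.6% against 14.96% at 10 or more. Replicate 0 had 1.17 calls per call of replicate 1 at 3 CpGs and 1.27 at 30 or more, so a larger share of its calls, 13.1% against 12.45%, fell in the least methylated class.

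Chromosomes differed by more than the libraries. The mean level ran from 39.4% ± 0.220 (SD, n = 2) on chromosome 7 to 44.6% ± 0.190 on chromosome 16. Given the same mix of CpG count and distance classes, it ran from 40.3% on chromosome 2 to 44.1% on chromosome 16, and chromosome 7 stood at 40.7%. Chromosome 1 moved from 42.1% to 40.7%. A range of a few points thus remained once these 2 features were held equal.

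**Figure D5:**
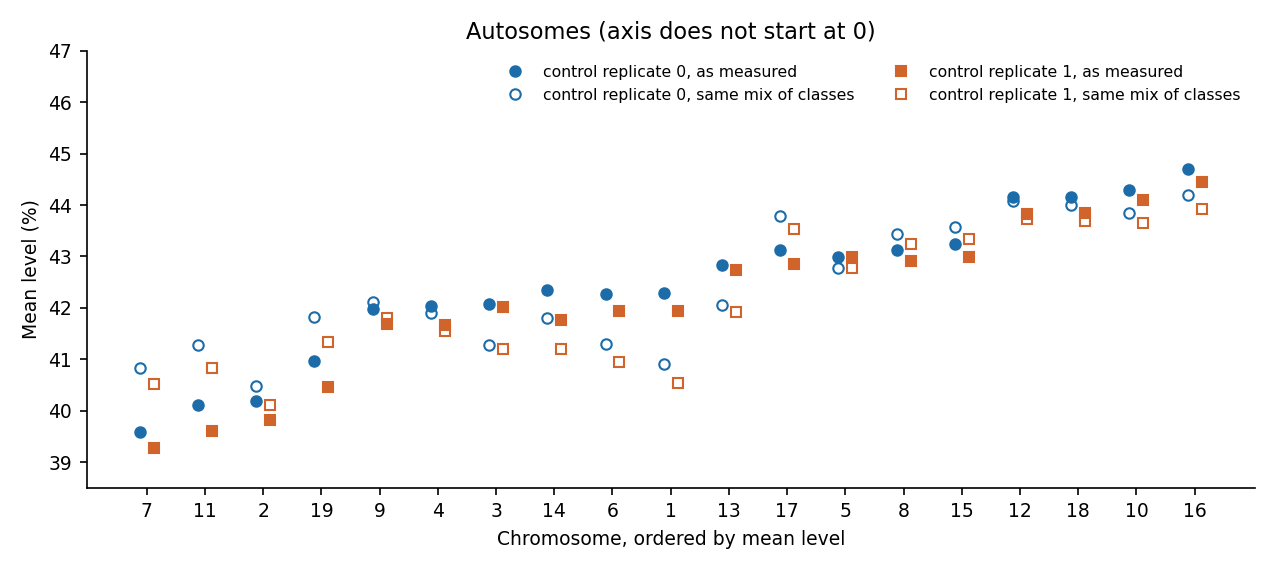
Mean methylation level (%) of each autosome in the 2 control libraries, as measured (filled) and with every chromosome given the same mix of CpG count and distance classes (open); the axis does not start at 0. Chromosome 7 is lowest as measured at 39.4% and chromosome 16 highest at 44.6%.

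A few regions were read far more often than the rest. In 80 regions the calls per CpG exceeded 20 times the median in both libraries, and these took 2.05% and 2.0003% of all calls. The largest share fell to 8 regions with 441 CpGs on chromosome 17 from 39979946 to 39985767, with 299901 and 228877 calls. They stood at 16.2 to 25.6% in replicate 0 and 15.7 to 22.3% in replicate 1, and 8 of 8 were higher in replicate 0. Over all regions described, 49.8% were higher in replicate 0. The 8 lie in 1 stretch and are not independent of each other. The single deepest region, on chromosome 15 from 74917094 to 74917369 with 11 CpGs, held 80055 and 60487 calls at 78.3% and 76.6%. Whether such regions gather reads from several copies was not tested.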

How the data were processed

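Per the labels, DNA of colon epithelial cells was captured (Agilent SureSelectXT Mouse Methyl-Seq) and bisulfite sequenced. The tools named in the submitters' processing notes are R 3.4.0, Bismark 0.15.0 and ChIPseeker 1.10.3, and the build is mm9. What each tool did, how regions were drawn and how duplicates were treated is in none of the sources used here. The deposited counts are, per region, its CpGs, the methylation calls and the methylated calls, blank under 20 calls. Only the 2 control files were used.

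Python 3.11.15, pandas 2.3.3 and numpy 2.4.6 gave the levels, classes and distances, and matplotlib 3.10.9 the figures. Density is CpGs per 100 bases of end - start + 1. Distance is the number of bases to the next deposited region. The functions were tested on simulated data. Where reads were simulated, each covered all CpGs of its region. Named regions had at least 100 calls in each library and are the 3 with most CpGs among all regions, above 80% in both and at 40 to 60% in both, the 3 with most calls among sparse regions below 10%, the 3 largest differences between the libraries each way, and the 3 largest steps between neighbours under 500 bases apart. No test was run. Coordinates were copied from the files, which do not say whether a start counts from 0 or 1. Regions, classes and rules were chosen with earlier results of these data known. Alternatives were other call minimums, pooled calls, class edges, chromosomes, CpG and length minimums and single libraries.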

Additional observations from a re-analysis of the deposited data

Results flagged for a closer look

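Regions outside the autosomes were not part of the description above and carry signal of their own. Counting each region once, the 2729 regions on chromosome X had a mean level of 34.55% ± 0.0418 (SD, n = 2), below the 42.1% of the autosomes. At 3 to 9 CpGs they stood at 45.2% against 52.2%, at 10 to 19 at 18.7% against 29.4%, at 20 to 29 at 8.14% against 9.16%, and at 30 or more CpGs, over 66 regions, at 12.2% against 3.59%, with medians of 1.49% and 1.29%. With calls pooled over regions, X was higher, at 37.3% and 36.5% in replicates 0 and 1 against 31.3% and 31.6% on the autosomes. Pooled, X was still lower at 3 to 9 CpGs, at 46.8% and 46.4% against 49.6% and 49.5%. It was higher at 10 to 19, at 20 to 29 and at 30 or more. At 30 or more the pooled level was 39.8% and 38.3% against 5.56% and 5.36%. The 18 regions on chromosome Y had a mean level of 30.03%, with 9087 and 7793 calls.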

How the results depend on the processing

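The levels depend on which regions are kept, and regions with more CpGs have more calls. The mean level of 42.1% was 37.6% with at least 50 calls in each library, 29.9% with at least 100, 31.4% with calls pooled over regions and 38.9% with at least 4 CpGs. The share below 10%, 35.6%, was 41.1%, 51.6% and 39.9% under the 50-call, 100-call and 4-CpG settings, 35.8% with the sex chromosomes, and 29.0% and 42.3% with the class edge at 5% and 20%. The share above 90%, 13.8%, was 11.5%, 8.41% and 12.5% under the first 3 settings, and 6.42% and 25.1% with the edge at 95% and 80%. The difference between the sparsest and the densest class, 19.5 points, was 31.3 with 50 calls, 38.8 with 100, 19.6 with the sex chromosomes, 35.5 with pooled calls and 47.8 in regions of at least 100 bases, since the short regions of the densest class drop out. The mean absolute difference between the libraries, 5.099 points, was 4.202, 3.27 and 4.64 with 50 calls, 100 calls and 4 CpGs. Single libraries gave 41.9 to 42.2% for the mean level, 35.6 to 35.7% and 13.6 to 13.997% for the shares, and 19.5 points for the density difference. Leaving out the 80 deepest regions gave a mean level of 42.1%. That setting, and the values for isolated dense regions by nearest distance and with at least 10 CpGs, were chosen after the data were seen. No paired analysis was possible because a single group was described.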
